A study of Homo sapiens with 12 samples.

Results

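The genes described here are 10 members of the human HSP40 family of cochaperones: DNAJA1, DNAJA2, DNAJA4, DNAJB1, DNAJB2, DNAJB4, DNAJB5, DNAJB6, DNAJB12 and DNAJB14. They were chosen by symbol, and the counts of all transcripts listed under a symbol were summed. The rule uses symbols and not levels, although earlier results of these data were known when the members were listed. Most members work in the cytosol and nucleus, and DNAJB12 and DNAJB14 sit in the membrane of the endoplasmic reticulum. All 10 were among the 25680 gene symbols of the tables, and all 10 passed the expression filter that left 16782 genes for testing. RNA sequencing covered U266 and MM.1S, established lines grown from human multiple myeloma, a cancer of plasma cells. Cells of each line received either DMSO, the solvent control, or IT848 at 6 µM, and RNA was taken after 6 h. The labels name IT848 as an inhibitor of NF-kB. Each of the 4 groups held 3 libraries, 12 in all. Nothing in the labels tells if a group's libraries are separate cultures. The p-values therefore measure only the spread between libraries, which may be technical.

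HSP40 proteins carry a J domain that makes HSP70 chaperones split ATP and close on an unfolded client, and each HSP40 brings its own clients to the same HSP70. Class A members keep a zinc finger next to the J domain, as bacterial DnaJ does, whereas class B members lack it. Some members are made at all times and others are switched on by heat shock factor when unfolded protein accumulates. Plasma cells and myeloma cells make and secrete large amounts of immunoglobulin and depend heavily on protein folding and disposal.

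Libraries held 50627690 to 72039748 transcript counts, or 22887470 to 32913398 when 1 transcript per gene was counted. The 8 plasma cell markers all reached at least 1 CPM (counts scaled to the size of the library) in every group. The 6 T and NK cell markers together came to 1.08 to 2.34 CPM. Summed myeloid markers (5 genes) were 3.16 to 4.07 CPM in U266 DMSO and 2.92 to 4.84 CPM in U266 IT848. Of these, CSF1R reached at least 1 CPM in all U266 libraries. The myeloid sum in MM.1S was 1.07 to 1.52 CPM with DMSO and 1.14 to 1.57 CPM with IT848. Summed stromal markers (5 genes, none at 0 in all libraries of a group) were 27.9 to 33.2 CPM in U266 DMSO and 35.5 to 43.8 CPM in U266 IT848. In MM.1S the same markers came to 14.8 to 19.3 CPM with DMSO and to 21.7 to 27.4 CPM with IT848. The part of these small marker sums in the results was not tested. A pair of libraries stood apart. U266 IT848 replicate 1 held all 8 of a set of genes high in MM.1S, at 0.887% of their MM.1S level, against 0.0767% and 0.0781% in the other IT848 libraries of U266. MM.1S DMSO replicate 2 held all 15 of a set of U266 genes, at 0.390% of their U266 level, where the treated MM.1S libraries had 0.0405 to 0.0666%. Responses of members called in a line, and counts of called genes that shifted clearly, are given with and without these libraries. Most other values, such as line differences under DMSO, levels, transcript percentages, likeness and named genes of other lists, include them.

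IT848 left 4 of the 10 HSP40 genes higher in each line, and none was called lower. Over all genes tested, 4.03% were called higher in U266 and 18.7% in MM.1S, and 4.98% and 19.6% were called lower. The leading gene was not the same. DNAJB1, the main stress-inducible class B member, rose 2.14-fold in U266 and was not called in MM.1S. DNAJA4, a class A member known to be induced by heat, rose 5.24-fold in MM.1S from a very low level and was not called in U266. DNAJB2 and DNAJB6 were called higher in both lines, DNAJA1 in U266 and DNAJB4 in MM.1S. Levels below are TMM-scaled CPM summed over the transcripts of a gene, which serve to compare libraries for 1 gene and not genes with each other. As the samples are bulk RNA, a change in how many cells carry a transcript and a change in its amount per cell cannot be told apart.

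**Figure D1:**
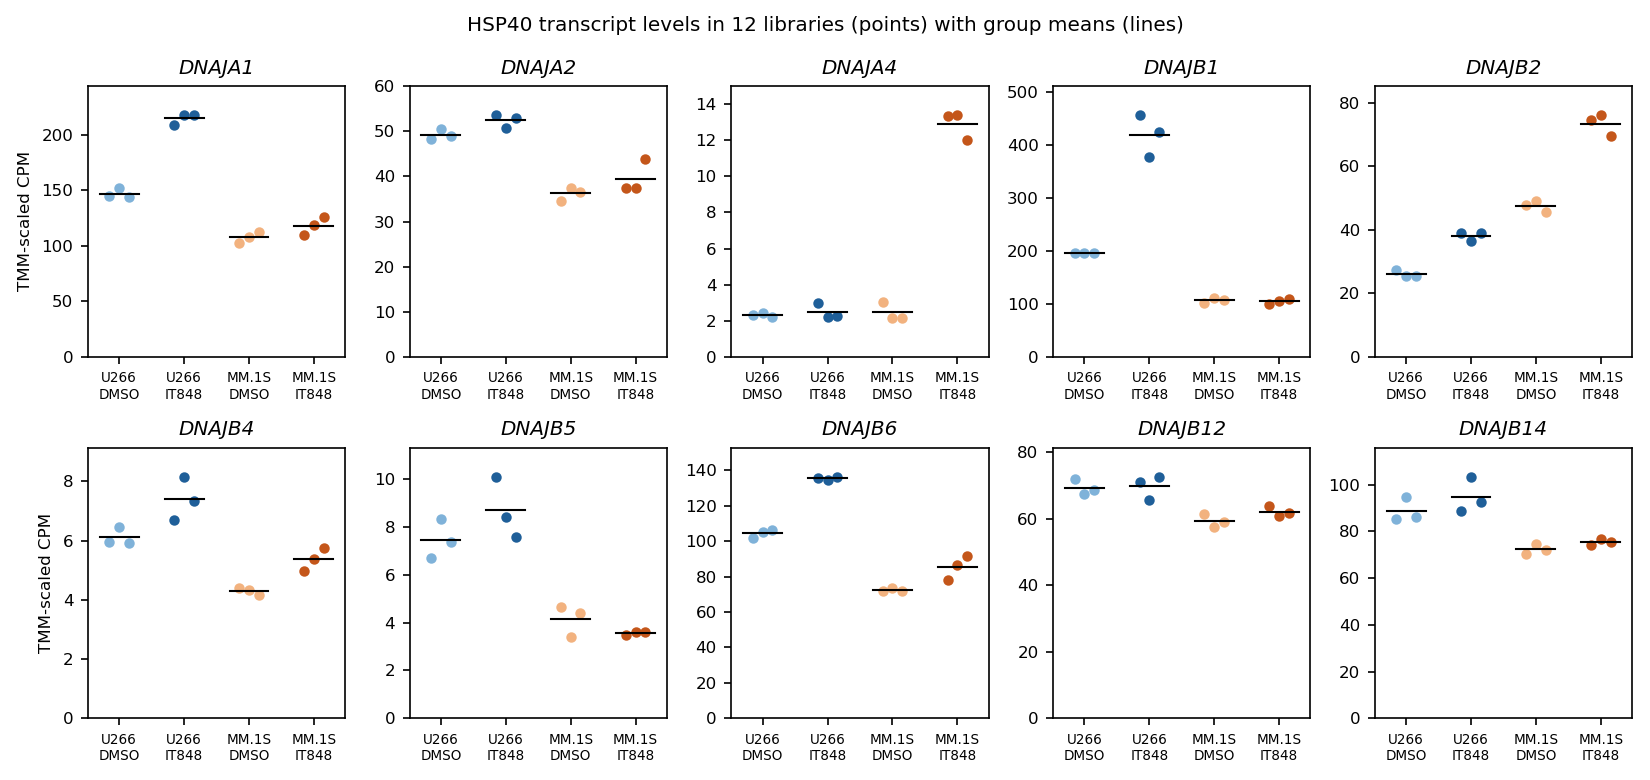
Level of each HSP40 gene in all 12 libraries. Each panel is 1 gene with its own vertical axis of TMM-scaled CPM starting at 0, points are libraries and lines are means of the 3 libraries of a group. The U266 IT848 points of DNAJB1 (378 to 456 CPM) and the MM.1S IT848 points of DNAJA4 (12 to 13.4 CPM) lie far above all other points of their panels.

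DNAJB1 stood at 195, 197 and 195 CPM in the DMSO libraries of U266 and at 456, 378 and 424 CPM in its IT848 libraries. In MM.1S it stood at 102, 111 and 107 CPM with DMSO and at 99.4, 105 and 108 CPM with IT848. The treated U266 libraries lay above every other library, while those of MM.1S overlapped their own controls, with 1 treated library below all of them. The log2 fold change was 1.10 ± 0.06 (SE, adjusted p = 3.05e-08, edgeR's quasi-likelihood test) in U266 and -0.03 ± 0.06 (adjusted p = 0.714) in MM.1S, with a 95% interval of -0.16 to 0.10. The difference of the responses, MM.1S minus U266, was -1.13 ± 0.08 (adjusted p = 8.86e-07). Without the libraries that stood apart, the U266 value was 1.03 ± 0.06 and the MM.1S value 0.01 ± 0.06. DNAJB1 exons overlap TECR on the opposite strand, and the strand setting of the counting is not given in the sources used here. TECR, a gene of fatty acid elongation, was not called for IT848 in either line. Its log2 fold changes were -0.07 ± 0.05 in U266 (adjusted p = 0.503) and -0.03 ± 0.05 in MM.1S (adjusted p = 0.668). Under DMSO, TECR was called higher in MM.1S than in U266 (0.39 ± 0.05, adjusted p = 7.77e-06, edgeR's quasi-likelihood test).

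The stretch upstream of the DNAJB1 start is shown because heat shock factor is known to act there, through inverted repeats of a short unit called the heat shock element. It is chr19:14518417-14518494 (GRCh38.p14, minus strand, RefSeq), from base -97 to base -20 of an annotated start, counting the first transcribed base as 1. That start lies within 50 bases of that of the transcript NM_006145. Capitals mark 2 matches to a pair of units, GAANNTTC.
DNAJB1: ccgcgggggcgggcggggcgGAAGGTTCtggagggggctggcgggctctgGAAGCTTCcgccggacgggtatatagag
A match is a run of letters, and binding was not measured here.

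DNAJA4 was at 2.34, 2.41 and 2.20 CPM in U266 with DMSO and at 3.0, 2.22 and 2.24 CPM with IT848. In MM.1S it was at 3.06, 2.18 and 2.16 CPM with DMSO and at 13.3, 13.4 and 12 CPM with IT848. The groups did not overlap in MM.1S and did in U266. Its most counted transcript, NM_001130182, rested on few reads, 37 to 73 counts per MM.1S DMSO library and 215 to 263 per MM.1S IT848 library, against 43 to 60 in all libraries of U266. The log2 fold change was 2.37 ± 0.14 (adjusted p = 1.2e-08, edgeR's quasi-likelihood test) in MM.1S and 0.10 ± 0.15 (adjusted p = 0.794) in U266, with a 95% interval of -0.23 to 0.42. The responses differed by 2.28 ± 0.20 (adjusted p = 5.38e-06), MM.1S minus U266. Without the libraries that stood apart, the values were 2.30 ± 0.13 in MM.1S and -0.06 ± 0.15 in U266. DNAJA4 exons overlap a pair of transcripts on the opposite strand, AC090607.3 and AC090607.4, whose reads may not be separable.

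DNAJB1 and DNAJA4 had the largest responses of the listed members, each in another line, so a DNAJA4 stretch is shown as well. It lies before a start within 50 bases of that of the transcript NM_001130182. It is chr15:78264451-78264537 (GRCh38.p14, plus strand, RefSeq), from base -111 to base -25, with 2 matches to GAANNTTC in capitals.
DNAJA4: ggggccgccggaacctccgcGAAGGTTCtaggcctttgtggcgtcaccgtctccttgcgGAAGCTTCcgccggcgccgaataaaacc
The matches have the same letters in the same order in both genes, GAAGGTTC and then GAAGCTTC. The longest run shared by both windows has 15 bases, GGAAGCTTCCGCCGG, around the match nearer to the start. In DNAJB1 these matches begin at bases -77 and -47, and in DNAJA4 at bases -91 and -52. The windows at other DNAJA4 starts held no such match. DNAJB1 had 1 further match, GAAGCTTC at bases 2 to 9 of another start, and none in its remaining window. The shared run was not compared with other pairs of windows.

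DNAJB2 and DNAJB6 keep aggregation-prone proteins, such as those with long glutamine tracts, in solution. DNAJB2 also binds ubiquitin and passes clients to the proteasome. DNAJB2 was at 27.2, 25.6 and 25.5 CPM in U266 with DMSO and at 39.0, 36.4 and 39.1 CPM with IT848. MM.1S stood at 47.7, 48.9 and 45.4 CPM with DMSO and at 74.4, 76.1 and 69.4 CPM with IT848. Treated and control libraries did not overlap in either line, and all controls of MM.1S lay above all treated libraries of U266. Its log2 fold change was 0.55 ± 0.05 (adjusted p = 1.01e-05, edgeR's quasi-likelihood test) in U266 and 0.63 ± 0.05 (adjusted p = 4.25e-07) in MM.1S. The difference of the responses was 0.08 ± 0.07 (adjusted p = 0.497), with a 95% interval of -0.08 to 0.24. DNAJB2 rose 1.46-fold in U266 and 1.55-fold in MM.1S, from control levels that were apart.

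DNAJB6 was at 102, 105 and 106 CPM in U266 with DMSO and at 136, 134 and 136 CPM with IT848. In MM.1S the values were 71.9, 73.4 and 71.8 CPM with DMSO and 78.0, 86.4 and 91.6 CPM with IT848. The groups did not overlap in either line, and the treated MM.1S libraries were more spread than the treated U266 libraries. The log2 fold changes were 0.38 ± 0.05 (adjusted p = 0.000193, edgeR's quasi-likelihood test) in U266 and 0.24 ± 0.05 (adjusted p = 0.00208) in MM.1S, and their difference was -0.14 ± 0.07 (adjusted p = 0.198; 95% interval -0.29 to 0.01). Annotation lists 8 pseudogenes named after DNAJB6, 6 after DNAJA1 and 2 after DNAJB1, so their counts are uncertain as far as reads with several alignments could be shared or lost.

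DNAJA1 is a general class A member of the cytosol that resting cells also make. It was at 145, 152 and 144 CPM in U266 with DMSO and at 209, 218 and 218 CPM with IT848. The MM.1S values were 103, 108 and 113 CPM with DMSO and 109, 118 and 126 CPM with IT848. The groups were far apart in U266 and overlapped in MM.1S. The log2 fold change was 0.55 ± 0.05 (adjusted p = 9.31e-06, edgeR's quasi-likelihood test) in U266 and 0.13 ± 0.05 (adjusted p = 0.0644) in MM.1S, and the difference was -0.42 ± 0.07 (adjusted p = 0.00168). The MM.1S value was called under 4 of 20 alternatives, among them without MM.1S IT848 replicate 1 (0.20, adjusted p = 0.00595) and without MM.1S DMSO replicate 3 (0.16, adjusted p = 0.0435). It came to 0.02 (adjusted p = 0.653) when a trend with transcript length was taken out of each library. That trend went with treatment in MM.1S, so a part of the response may have been taken out with it.

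DNAJA1 and DNAJB6 were the members whose windows held 3 heat shock units in a row, GAANNTTC followed at once by NNGAA, a form found in few promoters, and both are shown for that reason. The DNAJA1 match lies just after the start, in chr9:33025268-33025296 (plus strand, bases -5 to 24), and the DNAJB6 match lies before the start, in chr7:157336853-157336905 (plus strand, bases -151 to -99), both from RefSeq on GRCh38.p14. DNAJA1 also held a separate match to the pair GAANNTTC, GAAGATTC at bases -198 to -191 of the same start, in a stretch not shown. Capitals mark the match of 3 units.
DNAJA1: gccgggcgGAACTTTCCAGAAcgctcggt
DNAJB6: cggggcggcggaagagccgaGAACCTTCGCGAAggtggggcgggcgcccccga
Both genes were called higher in U266, but only DNAJB6 in MM.1S. The other members called higher in a line held no such match. A link between match and response was not tested.

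DNAJA2, the other general class A member of the cytosol, was at 48.2, 50.6 and 48.9 CPM in U266 with DMSO and at 53.6, 50.7 and 53.0 CPM with IT848. In MM.1S it was at 34.6, 37.5 and 36.7 CPM with DMSO and at 37.5, 37.3 and 43.8 CPM with IT848. Groups touched in U266 without overlapping and overlapped in MM.1S. The log2 fold changes, 0.09 ± 0.06 (adjusted p = 0.449, edgeR's quasi-likelihood test) and 0.13 ± 0.06 (adjusted p = 0.125), were not called. Without MM.1S IT848 replicate 1, the MM.1S value was 0.18 (adjusted p = 0.0454).

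DNAJB4 and DNAJB5 are the closest relatives of DNAJB1 and were among the members with the lowest levels. DNAJB4 was at 5.94, 6.45 and 5.94 CPM in U266 with DMSO and at 6.69, 8.17 and 7.34 CPM with IT848. In MM.1S it was at 4.41, 4.33 and 4.18 CPM with DMSO and at 4.98, 5.39 and 5.75 CPM with IT848. The treated libraries lay above the controls in both lines. The log2 fold changes were nearly the same, 0.28 ± 0.09 (adjusted p = 0.0755, edgeR's quasi-likelihood test) in U266 and 0.32 ± 0.10 (adjusted p = 0.0164) in MM.1S, although only the latter was called. Their difference was 0.04 ± 0.13 (adjusted p = 0.866; 95% interval -0.24 to 0.32). The MM.1S call was lost without MM.1S DMSO replicate 3 (adjusted p = 0.0506) and without MM.1S IT848 replicate 3 (adjusted p = 0.0576). The U266 value was called under 2 of 20 alternatives. These were without U266 IT848 replicate 1 (0.34, adjusted p = 0.0495), a library that stood apart, and with the most counted transcript alone (adjusted p = 0.0387). Without both libraries that stood apart it was 0.34 and not called (adjusted p = 0.0714, edgeR's quasi-likelihood test). DNAJB4 shares exon sequence with GIPC2 on the same strand, which did not reach the filter.

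DNAJB5 was at 6.70, 8.34 and 7.37 CPM in U266 with DMSO and at 10.1, 8.41 and 7.58 CPM with IT848, with overlapping groups. In MM.1S it was at 4.68, 3.38 and 4.42 CPM with DMSO and at 3.48, 3.59 and 3.62 CPM with IT848, again overlapping, since MM.1S DMSO replicate 2 was below all treated libraries. The log2 fold changes were 0.22 ± 0.12 (adjusted p = 0.364, edgeR's quasi-likelihood test) and -0.23 ± 0.14 (adjusted p = 0.217), and their difference was -0.45 ± 0.19 (adjusted p = 0.117). That MM.1S library stood apart, and without both such libraries the MM.1S value was -0.34 (adjusted p = 0.0400). The difference without both was -0.44 and was not called (adjusted p = 0.0994, edgeR's quasi-likelihood test). Without MM.1S DMSO replicate 2 alone, the difference was -0.57 (adjusted p = 0.0473). Of the alternatives, only 1 of 20 called the MM.1S value and only 1 of 19 the difference.

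DNAJB12 and DNAJB14 are anchored in the membrane of the endoplasmic reticulum, with the J domain facing the cytosol, and help to dispose of misfolded membrane proteins. DNAJB12 ranged from 67.5 to 71.9 CPM in U266 DMSO, 65.7 to 72.7 CPM in U266 IT848, 57.4 to 61.6 CPM in MM.1S DMSO and 60.8 to 63.9 CPM in MM.1S IT848. DNAJB14 ranged from 85.4 to 94.6, 88.6 to 103, 70.3 to 74.7 and 74.3 to 76.7 CPM in the same order of groups. Treated and control libraries overlapped for both genes in both lines. Of the 4 log2 fold changes the largest was 0.10 ± 0.06, that of DNAJB14 in U266 (adjusted p = 0.377, edgeR's quasi-likelihood test), and the smallest was 0.01 ± 0.05, that of DNAJB12 in U266 (adjusted p = 0.951; 95% interval -0.10 to 0.11). In MM.1S both were called with the length trend taken out, at 0.13 (adjusted p = 0.0449) for DNAJB12 and 0.18 (adjusted p = 0.0179) for DNAJB14. The trend and the treatment cannot be told apart in that line.

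The counts of the listed members stand beside those of all genes as follows. In U266, 4 of 10 members were called, all higher, against 9.01% of all genes called and 4.03% called higher. In MM.1S, also 4 of 10 were called, all higher, against 38.3% of all genes called and 18.7% called higher, so that the share of members called is near that of all genes. Libraries did not overlap, with IT848 higher, for 6 of 10 members in U266 (14.3% of all genes) and for 4 of 10 in MM.1S (22.4% of all genes). The median log2 fold change of the members was 0.25 in U266 and 0.13 in MM.1S, against 0.01 and -0.01 over all genes tested. The difference of the responses was called for 3 members, against 17.4% of all genes. It was higher in MM.1S for DNAJA4 (8.49% of all genes) and lower for DNAJA1 and DNAJB1 (8.94% of all genes). Without the libraries that stood apart, the other called members kept their calls, with log2 fold changes in U266 of 0.57 for DNAJA1, 0.53 for DNAJB2 and 0.38 for DNAJB6. In MM.1S they were then 0.66 for DNAJB2, 0.33 for DNAJB4 and 0.26 for DNAJB6. Levels moved with transcript length from library to library, more so in MM.1S. The Spearman correlation with length was taken over 10595 genes, for a library's deviation from the mean of its line over both treatments. In MM.1S it ranged from 0.16 to 0.41 under DMSO and from -0.45 to 0.03 under IT848. The treated MM.1S libraries thus all lay below the controls, and there the trend and the treatment cannot be told apart. Taking the trend out may therefore also take out a part of the response. In U266 it ranged from -0.01 to 0.19 under DMSO and from -0.22 to 0.11 under IT848. With the length trend taken out, all 4 members called in MM.1S were still called, DNAJA4 at 2.38, DNAJB2 at 0.65, DNAJB4 at 0.29 and DNAJB6 at 0.22. The 4 called in U266 also kept their calls, DNAJB1 at 1.10, DNAJB2 at 0.55, DNAJA1 at 0.53 and DNAJB6 at 0.38.

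**Figure D2:**
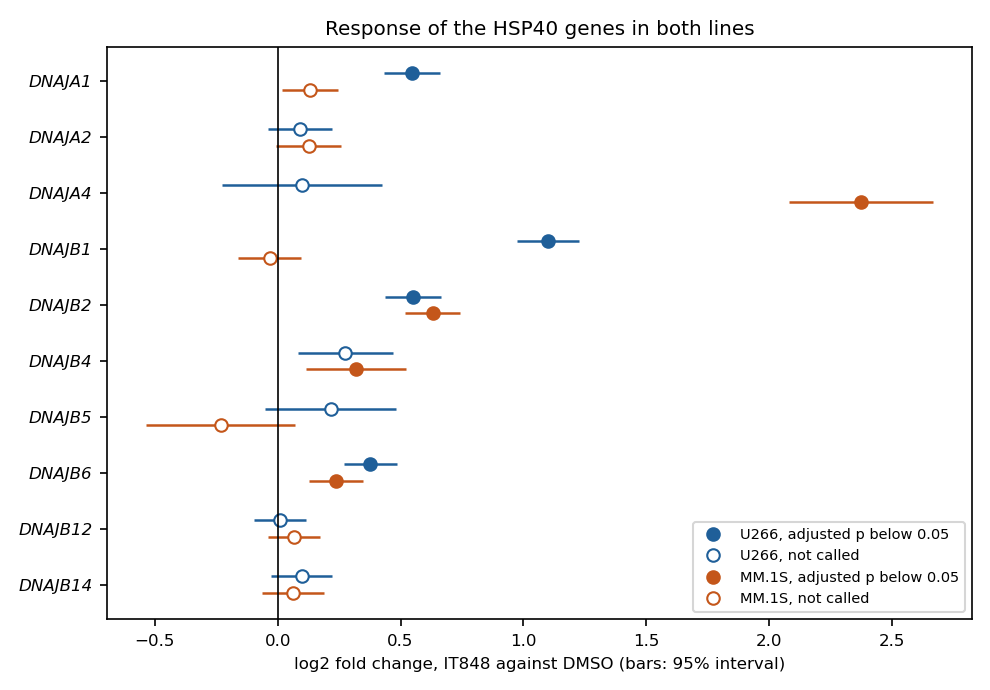
Response of each HSP40 gene to IT848 in U266 (blue) and MM.1S (orange). The horizontal axis is the log2 fold change against DMSO, bars are 95% intervals derived from edgeR's test, and filled points passed an adjusted p below 0.05. DNAJB1 (1.10 and -0.03) and DNAJA4 (0.10 and 2.37) lie far apart between the lines, and DNAJB2 (0.55 and 0.63) lies close together.

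Under DMSO the lines differed in 9 of the 10 members, against 82.6% of all genes, which is near the background. Of these, 8 were lower in MM.1S (42.1% of all genes) and DNAJB2 alone was higher (40.6% of all genes). The log2 difference, MM.1S minus U266, was -0.87 ± 0.06 for DNAJB1 (adjusted p = 2.46e-09, edgeR's quasi-likelihood test) and -0.84 ± 0.13 for DNAJB5. It was -0.53 ± 0.05 for DNAJB6, -0.50 ± 0.09 for DNAJB4, -0.45 ± 0.05 for DNAJA1 and -0.44 ± 0.06 for DNAJA2. The membrane-anchored genes differed least among those called, by -0.29 ± 0.06 for DNAJB14 and -0.22 ± 0.05 for DNAJB12. DNAJB2 was 1.82-fold higher in MM.1S, with a log2 difference of 0.86 ± 0.05 (adjusted p = 7.39e-10). DNAJA4 was not called (0.10 ± 0.15, adjusted p = 0.534). The median over the members was -0.45, against -0.02 over all genes.

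Levels of the genes can be set against each other only per length, here as the FPKM that the authors deposited for the most counted transcript of each gene (mean ± SD, n = 3). In U266 DMSO the order ran from DNAJA1 (96.7 ± 2.42 FPKM) over DNAJB1 (42.8 ± 0.0551), DNAJB6 (26.3 ± 0.529), DNAJA2 (16.4 ± 0.353), DNAJB12 (8.18 ± 0.284), DNAJB14 (7.08 ± 0.372), DNAJB2 (4.52 ± 0.193), DNAJB4 (2.77 ± 0.122) and DNAJB5 (0.910 ± 0.0905) down to DNAJA4 (0.257 ± 0.0108). In MM.1S DMSO the order was the same, from DNAJA1 at 69.6 ± 2.79 FPKM to DNAJA4 at 0.270 ± 0.0581 FPKM, except that DNAJB2 (7.83 ± 0.352 FPKM) stood above DNAJB12 (6.95 ± 0.271 FPKM). With IT848, DNAJA4 in MM.1S reached 1.41 ± 0.101 FPKM and passed DNAJB5 (0.414 ± 0.00787 FPKM), but stayed below DNAJB4 (2.36 ± 0.133 FPKM). Neighbours in the order overlapped between libraries in 2 cases, DNAJB12 and DNAJB14 in U266 IT848 and DNAJA2 and DNAJB2 in MM.1S IT848. A 5.24-fold rise of DNAJA4 thus left it a minor transcript among the listed members, at 0.892 ± 0.0926% of their summed FPKM in MM.1S IT848.

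Summed over the 10 genes, the FPKM went from 206 ± 2.95 with DMSO to 313 ± 6.69 with IT848 in U266, and from 143 ± 3.48 to 158 ± 6.13 in MM.1S. The treated libraries lay above the controls in both lines, with a gap far larger than the spread in U266. DNAJB1 made up 20.8 ± 0.295% of this sum in U266 DMSO and 29.5 ± 2.24% in U266 IT848. In MM.1S its share was 16.0 ± 0.412% with DMSO and 14.1 ± 0.135% with IT848. DNAJA1 held the largest share in every group, from 45.2 ± 1.85% in U266 IT848 to 48.6 ± 1.10% in MM.1S DMSO. DNAJB2 held 2.19 ± 0.115% and 2.11 ± 0.0326% in U266, but 5.47 ± 0.289% and 7.61 ± 0.675% in MM.1S. These shares are descriptions and were not tested.

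Of the 20 transcripts listed for the members, most could not be told apart, since transcripts of a gene had similar counts. Such counts arise when a read is given to each transcript that it touches, although this setting is not given. DNAJB6 and DNAJB14 were the clearest exceptions. The shortest DNAJB14 transcript, NM_001278311 (710 bases), had on average 9.54% of the count of NM_001031723 (6073 bases) in U266 DMSO. It had 9.75% in U266 IT848, 10.8% in MM.1S DMSO and 11.4% in MM.1S IT848. The longer DNAJB6 transcript NM_058246 (2476 bases) and the shorter NM_005494 (1559 bases) differ at the 3′ end. The longer form is known to enter the nucleus. The count of the shorter transcript was 61.9%, 62.9% and 62.2% of that of the longer in the DMSO libraries of U266, and 60.4%, 60.4% and 60.3% in its IT848 libraries. In MM.1S the values were 83.6%, 85.5% and 85.3% with DMSO, and 79.9%, 80.4% and 82.4% with IT848. The lines did not overlap, and the treated libraries lay below the controls in both lines by a smaller margin. DNAJB2, with a shorter transcript NM_001039550 of 1974 bases and a longer one NM_006736 of 3125 bases, showed a smaller gap, with U266 libraries between 85.7 and 88.4% and MM.1S libraries between 91.4 and 92.6%. As reads are shared between forms, these percentages are not amounts of each form, and no test was made.

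**Figure D3:**
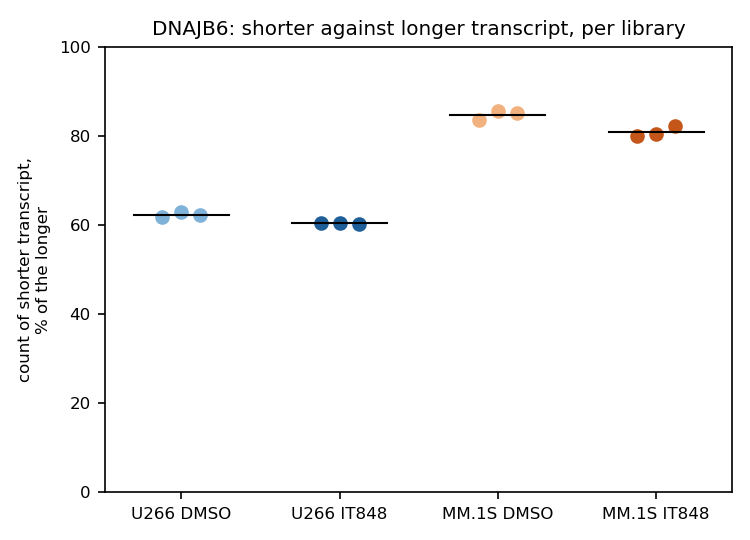
Count of the shorter DNAJB6 transcript as a percentage of the longer one, per library (points) with group means (lines). The axis runs from 0 to 100%, and the U266 libraries lie between 60.3 and 62.9% while the MM.1S libraries lie between 79.9 and 85.5%.

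The other J-domain genes, a list of 39 of which 35 passed the filter, served as a comparison within the wider family. This list also holds DNAJA and DNAJB genes outside the chosen members, among them DNAJA3, DNAJB9 and DNAJB11. In U266, 3 rose and 0 fell (8 had an unadjusted p below 0.05), with a median log2 fold change of 0.03, and 9.01% of all genes were called. Those that rose were DNAJC6, the clathrin-uncoating auxilin (0.49 ± 0.09), DNAJB9 of the lumen of the endoplasmic reticulum (0.29 ± 0.07) and DNAJC24, which takes part in diphthamide synthesis (0.23 ± 0.06). In MM.1S, 11 rose and 3 fell, with a median of 0.07, and the 40% called is near the 38.3% of all genes. The largest rises were those of DNAJC12 (0.48 ± 0.14), DNAJC18 (0.37 ± 0.09) and HSCB, a cochaperone of iron-sulfur cluster assembly (0.33 ± 0.12). The falls were those of the mitochondrial DNAJC11 (-0.26 ± 0.05), DNAJC16 (-0.18 ± 0.06) and DNAJC5, the cysteine string protein of secretory vesicles (-0.13 ± 0.05). The responses differed between the lines for 2 of the 35, DNAJC16 and DNAJC11, both lower in MM.1S, against 17.4% of all genes. No log2 fold change called in this list reached that of DNAJB1 in U266 or of DNAJA4 in MM.1S. Without the libraries that stood apart, 1 gene of this list was called in U266, 7 in MM.1S and 0 for the difference. The difference was also called for 0 genes on leaving out most single libraries.

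The HSP70 cycle list held the HSP70 proteins themselves, the exchange factors that release ADP from them and the adaptors that link them to HSP90 or to ubiquitin, 29 genes of which 27 were tested. In U266, 10 rose and 1 fell, with a median of 0.11, against 9.01% of all genes called. HSPA6, a strictly stress-induced HSP70, went from 0.188 ± 0.0569 CPM to 106 ± 20.7 CPM (log2 9.10 ± 0.21, adjusted p = 3.25e-11, edgeR's quasi-likelihood test). BAG3, an exchange factor of selective autophagy, went from 12.3 ± 0.229 to 36.9 ± 4.52 CPM (1.58 ± 0.08), and HSPA1B, an inducible HSP70, from 0.306 ± 0.105 to 1.58 ± 0.451 CPM (2.38 ± 0.26). HSPA5, the HSP70 of the endoplasmic reticulum also called BiP, fell by 0.25 on the log2 scale. HSPA6 and HSPA1B have near-identical copies and are uncertain.

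In MM.1S, 9 genes of the HSP70 cycle rose and 5 fell, with a median of 0.06, against 38.3% of all genes called. HSPA6 again led, from 3.61 ± 0.378 to 8.72 ± 0.765 CPM (1.26 ± 0.15, adjusted p = 3.27e-05, edgeR's quasi-likelihood test). Next were HSPH1, the HSP110 exchange factor (1.08 ± 0.04), and ST13, the HSP70-interacting protein HIP (0.88 ± 0.04). The largest falls were those of HSPA2 (-0.88 ± 0.28, at under 1 CPM), GRPEL2, a mitochondrial exchange factor (-0.28 ± 0.05), and BAG5 (-0.19 ± 0.05). The responses differed for 11 of the 27, 3 higher and 8 lower in MM.1S, against 17.4% of all genes. Among the lower were HSPA6 (-7.84 ± 0.30), HSPA1B (-1.91 ± 0.33) and BAG3 (-1.16 ± 0.12), and among the higher was ST13 (0.58 ± 0.05). Without the libraries that stood apart, the difference was called for 6 of these genes.

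Some further values of cycle genes were picked after they were seen, and not by the naming rule. HSPA8, the constitutive HSP70 of the cytosol, went from 1793 ± 56.8 to 2359 ± 64.9 CPM in U266 (0.40 ± 0.08, adjusted p = 0.00606, edgeR's quasi-likelihood test). In MM.1S it was at 2125 ± 147 CPM with DMSO and 1979 ± 275 CPM with IT848 (-0.10 ± 0.08, adjusted p = 0.333), and the responses differed by -0.50 ± 0.11 (adjusted p = 0.00854). HSPH1 and STIP1, the adaptor HOP between HSP70 and HSP90, rose in both lines, by 1.04 ± 0.04 and 0.56 ± 0.04 in U266 and by 1.08 ± 0.04 and 0.61 ± 0.04 in MM.1S. Their differences between the lines, both 0.05 ± 0.06 with a 95% interval of -0.07 to 0.17, were not called.

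**Figure D4:**
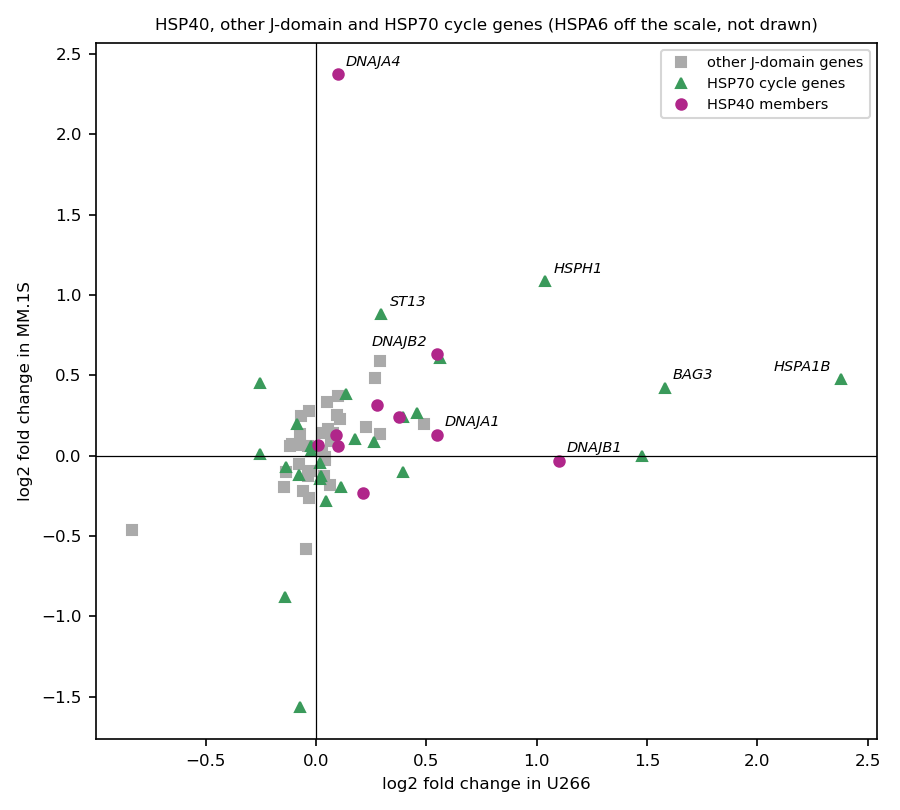
Response to IT848 in U266 (horizontal axis) and in MM.1S (vertical axis), both as log2 fold change against DMSO, for the HSP40 genes (circles), other J-domain genes (squares) and HSP70 cycle genes (triangles) that were tested. HSPA6 (9.10 in U266) is off the scale and not drawn. DNAJA4 lies near the vertical axis at 2.37 and DNAJB1 near the horizontal axis at 1.10, while HSPH1 and DNAJB2 are high on both.

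To see which genes followed the 2 leading members across the 12 libraries, likeness was measured as the root mean square difference of log2 CPM centred on the mean of each gene. The 5 genes most like DNAJB1 were NFKBIA (0.20), SRGAP3 (0.21), DDIT3 (0.22), LOC644656 (0.25) and NR4A1 (0.26). NFKBIA, which encodes the NF-kB inhibitor IkBα, averaged 32.9 CPM in U266 DMSO, 49.7 CPM in U266 IT848, 15.3 CPM in MM.1S DMSO and 16.1 CPM in MM.1S IT848. It was thus high in the groups in which DNAJB1 was high, with a log2 fold change of 0.60 in U266 against 1.10 for DNAJB1. The 5 genes most like DNAJA4 were LOC100132891 (0.33), VWA5A (0.37), ABCB6 (0.38), ASF1A (0.39) and C5orf45 (0.40). ABCB6, a membrane transporter, averaged 12.3, 24.3, 14.5 and 75.2 CPM in the same order of groups, so that, unlike DNAJA4, it was also higher in treated U266 (0.98, adjusted p = 1.64e-08, edgeR's quasi-likelihood test). All libraries share a line or a treatment with others, so likeness here is a description of 4 group means and their spread.

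RefSeq promoter windows, from 250 bases before to 50 bases after a start, were at hand for all 10 members, 15 windows in all. They were searched on both strands for heat shock units and for the core of the antioxidant response element, TGACNNNGC. The form with 3 units (GAANNTTC followed at once by NNGAA, or TTCNNGAA followed at once by NNTTC) was found for 2 of 10 members, DNAJA1 and DNAJB6, and for 0.608% of all 27305 genes (0.490% of all 35116 windows). Pairs of units (GAANNTTC or TTCNNGAA), which the longer form contains, were found for 5 members, DNAJA1, DNAJA4, DNAJB1, DNAJB4 and DNAJB6, and for 16.2% of all genes. By window, they were in 6 of the 15 member windows and in 13.5% of all windows. The antioxidant core was found for DNAJA2 and DNAJB6 and for 16.1% of all genes (13.3% of all windows). DNAJB4, the member with a single match outside the genes shown above, holds it in chr1:78004821-78004868 (GRCh38.p14, plus strand), from base -118 to base -71 of a second start.
DNAJB4: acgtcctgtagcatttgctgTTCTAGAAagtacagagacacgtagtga
DNAJB2, which rose in both lines, has 1 window, in which these letters were not found. That says nothing of sites outside it.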

How the data were processed

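Per the submitters' processing notes, the tools were STAR 2.5.2b and Trimmomatic 0.36, with bcl2fastq before them and featureCounts (Subread 1.5.2) after, and the build was hg19. Not given in the sources used here are the strand setting, the annotation release and how reads with several alignments were treated. The deposited tables list 51780 RefSeq transcripts with a count, which per the file headers is the number of reads given to that transcript. FPKM, also deposited, is this count per transcript length and library total, and gave the levels per length here. The deposited TPM was scaled by the authors within each library and was not used for results.

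For each symbol the counts of its transcripts were added up. Reads may enter such a sum more than once, which the filter and the test did not take into account. In U266 DMSO replicate 1, DNAJA4 had 43 counts for each transcript and a sum of 129. The sums were tested with edgeR 4.0.16 (R 4.3.3, limma 3.58.1), by a quasi-likelihood test with robust estimation. That test gives no SE, so the SE was derived as the absolute log2 fold change divided by the square root of its F value. The 95% intervals were built from this SE and the t distribution. The fit used 1 mean for each group of the 12 libraries, TMM scaling, and edgeR's expression filter at a minimum count of 10. Benjamini-Hochberg adjustment ran over all 16782 genes tested, and a gene was called at an adjusted p below 0.05. The script was tested on simulated data. Alternatives were no filter, DESeq2 1.42.0, RLE scaling, the most counted transcript alone, a replicate block, each line alone, a correction for transcript length, and leaving out libraries. Reads carry no molecular identifiers, so depth limits cover counting error only.

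All members are named. Of the other lists, the 3 called genes with the largest rise and the 3 with the largest fall in each line are named, and the 5 genes most like DNAJB1 and DNAJA4. A rule for genes of at least 10 CPM called in opposite directions in the lines found none. Members, lists and rules were chosen with earlier results of these data known. Sequences come from RefSeq on GRCh38.p14, read for all 10 members. Protein sequences and hg19 coordinates were not used here. The erythroid marker list is not reported here.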

Additional observations from a re-analysis of the deposited data

Results flagged for a closer look

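The response to IT848 differed between the lines, by the test of the difference itself in edgeR's fit, for 3 of the 10 HSP40 genes. MM.1S minus U266, the log2 differences were -1.13 for DNAJB1, -0.42 for DNAJA1 and 2.28 for DNAJA4. These calls held under all 19 alternatives tried for each, with ranges of -1.19 to -1.03, -0.51 to -0.35 and 2.19 to 2.48.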

How the results depend on the processing

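No log2 fold change of a called member reversed. The number of HSP40 genes called stayed at 4 to 5 in U266, 3 to 6 in MM.1S, 3 to 4 for the difference of the responses and 9 for the lines under DMSO. Leaving out 1 library at a time gave 986 to 1827 of all genes called in U266 (1512 with all libraries), the lowest without U266 DMSO replicate 3. It gave 2208 to 3870 for the difference (2924). It gave 1 to 3 other J-domain genes in U266 (3), with 1 without U266 DMSO replicate 1 or 3 or IT848 replicate 3. In MM.1S it gave 8 to 13 (14), with 8 or 9 without MM.1S DMSO replicate 1 or 2 or IT848 replicate 3. For the difference it gave 0 to 5 (2), and each library but U266 IT848 replicate 2 and MM.1S DMSO replicate 3 moved this count, up to 5 without MM.1S IT848 replicate 1, to 1 without U266 IT848 replicate 1 and to 0 without any of the rest. Without both libraries that stood apart, 924 genes were called in U266 and 1712 for the difference. The other J-domain genes then came to 1 in U266, 7 in MM.1S and 0 for the difference, and the HSP70 cycle genes to 6 for the difference (11). These fits rest on fewer samples. The other J-domain genes came to 5 in U266 with DESeq2. For the difference they came to 6 with DESeq2, 0 with no filter, 1 with RLE scaling, 4 with the most counted transcript and 4 with the length trend taken out. The cause of these shifts was not tested.

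With the replicate number as a block within each line, 4388 genes and 6 other J-domain genes were called for the difference, 2155 genes in U266 and 7331 in MM.1S. DNAJA1 was then called in MM.1S (adjusted p = 0.0100, edgeR's quasi-likelihood test). No other call of an HSP40 gene changed. Correlations of the deviations of same-numbered libraries were 0.0971, 0.0688 and -0.00890 in U266 and 0.259, -0.0261 and 0.203 in MM.1S. The highest correlation with another number was 0.0777 in U266 and 0.0580 in MM.1S. Not every pair was above 0.1 in either line, so the numbers were not taken as pairs, although 2 of the 3 in MM.1S were above it.

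Counting limits DNAJA4 most, with 37 to 73 counts of its most counted transcript in each DMSO library of MM.1S, then DNAJB5 with 57 to 200 counts per library.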
